A study of Mus musculus with 48 samples.

Results

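Livers of mice whose dams were fed too little selenium (Se) and folate were compared by the diet the offspring ate after weaning. The 12 arrays are those of liver RNA from 6 LH and 6 LL offspring, out of 48 arrays of liver and colon in the whole series. They were taken by the diet and tissue in the array labels, without regard to any measured value. In the group names, the dam's diet comes first and the offspring's second. At weaning, LH offspring were moved from the low diet (L), marginally deficient in Se and folate, to diet H, supplemented above the recommended requirements. LL offspring stayed on diet L. Both groups thus shared dams fed diet L through mating, gestation and lactation. They also shared the strain (C57/BL6), the age of 12 weeks, male sex and the high-fat base of both diets, and all mice were fasted and re-fed before the liver was taken. Each slide held 1 LH and 1 LL liver, so the 6 slides give 6 LH and LL pairs. The sources used here do not say which mice were littermates or how many dams each group came from, so p-values measure the spread between these mice only. Se and folate were changed together, and effects of the one cannot be told apart from those of the other.

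Mouse RNA carried the dye Cy3 and was hybridised beside a common reference RNA in Cy5 on 2-colour Agilent arrays. Every value is a log2 ratio of mouse over reference, and every difference is LH minus LL, in log2 units. The reference cancels in the difference. Its identity is described as a whole pregnant mouse with foetus in the array descriptions and as pooled gut and liver RNA in the methods. Levels of different genes are therefore not compared.

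Selenium acts through selenoproteins, enzymes with selenocysteine in the active site that reduce peroxides and thioredoxin or activate thyroid hormone. Folate carries single carbon units for nucleotide synthesis and for the remethylation of homocysteine to methionine, which supplies the methyl groups of DNA methylation. The liver stores both nutrients, makes most plasma proteins and so carries a large load of protein synthesis, folding in the endoplasmic reticulum (ER) and mitochondrial respiration. Cells with more unfolded protein in the ER induce chaperones through the sensors ATF6, IRE1 and PERK, the unfolded protein response.

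Differences in liver RNA between the diets after weaning were small after a low dam. Genes of the cytosolic ribosome and of the respiratory chain were for the most part lower in LH than in LL livers, by medians of 0.17 and 0.15. Genes of ER protein folding and of its quality control were for the most part higher in LH, by medians of 0.14 and 0.15. The median over all named genes was 0.01. No single gene passed the adjusted threshold, so none is described as changed. Among the 41171 probes tested, 0 (0%) had a fold change over 1.5 with an adjusted p under 0.05 in limma with Benjamini-Hochberg adjustment, and the lowest adjusted p was 0.818. Without the fold limit, or with the adjusted limit relaxed to 0.1, the count was also 0. At an unadjusted p under 0.05 there were 2487 probes (6.04%), of which 1301 (3.16%) were higher and 1186 (2.88%) lower in LH. Of these, 114 differed by over 1.5-fold. The total of 2487 was 1542 without LL replicate 2 and 1643 without LH replicate 5. For single genes the SE is that of the limma fit, and the adjusted p of each named gene with an unadjusted p under 0.05 was 0.818. Most list genes were named for that unadjusted p in these same mice. Their ranges and counts of slides describe them and are not further evidence. For 7 genes that the study's liver results name, and for *Alb*, a two-sided exact permutation test of the mean difference over all 924 splits of the 12 mice is given, unadjusted. The study chose these 7 on the same samples, so that the test is not independent evidence, and their adjusted p in limma was 0.818 to 0.876.

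The ratios of LH replicates 1 and 5 were compressed by the background correction (SD of log2 ratios 0.76 and 0.87, and 0.84 and 0.94 after repair of the local background). Those of HH replicate 2 and HL replicates 5 and 6 were compressed further (SD 0.57, 0.61 and 0.55, and 0.86, 0.94 and 0.93 after repair). LL replicate 6 gave a log2 Cy3 signal of 8.56 for *Xist*, the RNA of the inactive X chromosome of females, against 5.82 to 6.83 on the other 11 arrays, although its Y-linked *Eif2s3y* signal of 10.63 was that of a male. The HH and HL groups share the estimate of the spread with LH and LL and serve the comparison with the switch after a high dam. Among them, HL replicate 2 had an *Xist* signal of 11.55 and an *Eif2s3y* signal of 6.13. Values without some of these arrays are given for the ribosomal, respiratory and ER lists and for some other results, but not for every gene.

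Cell type markers were read as ratios to the reference, which do not show whether a cell type was present. Markers of hepatocytes averaged 1.47 to 2.03 above the reference in LH and 1.30 to 1.73 in LL, and *Alb* (albumin) differed by 0.13 (SE 0.18, exact p = 0.481). Of 6 hepatocyte markers measured, *Fgb* and *Tdo2* were higher in LH at an unadjusted p under 0.05, and the median of the list was 0.22. All 10 markers of Kupffer cells, the resident macrophages of the liver, were lower in LH by 0.13 to 0.61, with none at an unadjusted p under 0.05 (median -0.29, and -0.17 without LH replicate 2). Their mean was 0.96 to 2.11 in LH and 1.47 to 1.99 in LL mice, and was lower in LH on 5 of 6 slides. Intestinal, pancreatic and cholangiocyte markers were all far below the reference, at list means from -2.05 down to -4.23. In bulk liver, fewer cells of a type and less RNA per cell cannot be told apart.

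Some genes separated the groups mouse by mouse. For 114 of 41171 probes (0.277%) the 6 LH and the 6 LL values did not overlap, 46 of them (0.112%) higher and 68 (0.165%) lower in LH. For 1 probe, complete separation has a p of 0.00216 in a two-sided exact permutation test over 924 splits. The share of 0.277% is near that value. Among probes with a gene name and a clear signal, the 8 with the lowest p on each side are described. They were picked for the lack of overlap, which is therefore not a result about them. *Snhg3*, a host transcript of small nucleolar RNAs, which guide the modification of ribosomal RNA, had the lowest p of these. It lay between -0.63 and -0.18 in LH mice (median -0.46) and between -0.16 and 0.17 in LL mice (median 0.06). All 6 LH mice were below all 6 LL mice, by 0.46 on average (SE 0.10), a 1.37-fold lower level. *Hba-a1*, the alpha chain of haemoglobin, was between -0.36 and 0.21 in LH (median 0.03) and between 0.27 and 0.83 in LL (median 0.58). The difference was -0.59 (SE 0.14), and the beta chain *Hbb-bt* differed by -0.61 (SE 0.20). Of the other erythroid markers, *Slc4a1* differed by -0.13 and *Alas2* by 0.02.

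**Figure D1:**
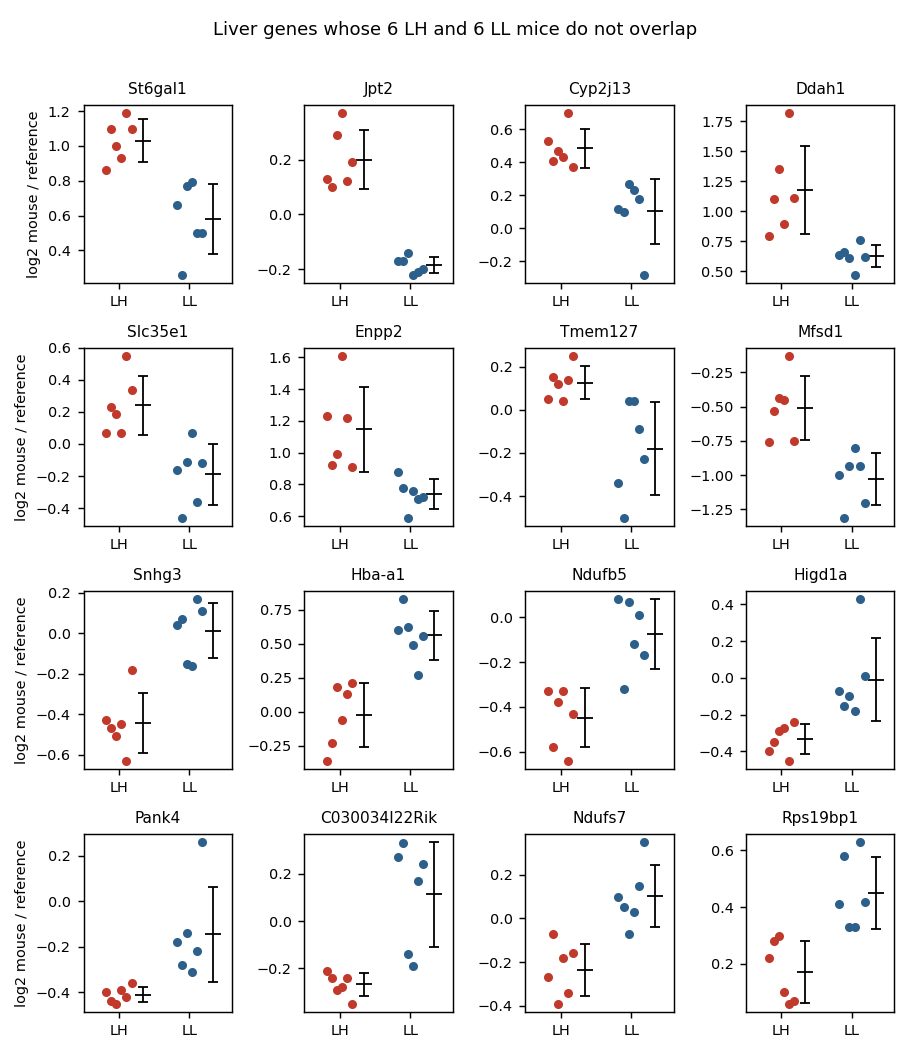
Log2 ratio of mouse over reference (vertical axis) of 16 liver genes in each of 6 LH (red) and 6 LL (blue) mice, with the mean and SD as black bars. The upper 8 genes are higher and the lower 8 lower in every LH mouse than in any LL mouse, and the mean differences run from 0.55 for *Ddah1* to -0.59 for *Hba-a1*.

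Subunits of mitochondria were among the lower genes without overlap. *Ndufb5*, an accessory subunit of respiratory complex I, ran from -0.64 to -0.33 in LH (median -0.41) and from -0.32 to 0.08 in LL (median -0.06). The difference was -0.37 (SE 0.09). *Ndufs7*, a core subunit of the same complex, was lower by 0.34 (SE 0.11), with LH mice at -0.39 to -0.07 and LL mice at -0.07 to 0.35, apart only beyond the second decimal. *Higd1a*, a mitochondrial protein that assists cytochrome oxidase, was lower by 0.32 (SE 0.09). Its second probe differed by only -0.11. The remaining genes of this side were *Pank4* (-0.26), a relative of the pantothenate kinases, *Rps19bp1* (-0.28), a nucleolar protein that binds ribosomal protein S19, and the unannotated transcript *C030034I22Rik* (-0.38). For *Rps19bp1* the second probe gave -0.09, so its probes disagree.

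On the higher side, *St6gal1*, which adds terminal sialic acid to secreted glycoproteins, was 0.86 to 1.19 in LH (median 1.05) and 0.26 to 0.79 in LL mice (median 0.58). The difference was 0.45 (SE 0.11), a 1.36-fold higher level, and its second probe gave 0.31. *Ddah1*, which breaks down the nitric oxide synthase inhibitor dimethylarginine, was 0.79 to 1.82 in LH (median 1.10) against 0.47 to 0.76 in LL (median 0.62), a difference of 0.55 (SE 0.16). LL mice lay close together, whereas LH replicate 5 was far above the other LH mice. The second *Ddah1* probe gave 0.16. *Enpp2*, the enzyme that makes lysophosphatidic acid, was higher by 0.40 (SE 0.12), *Jpt2* by 0.39 (SE 0.10), *Cyp2j13*, a cytochrome P450, by 0.38 (SE 0.10) and *Mfsd1*, a membrane transporter, by 0.52 (SE 0.17). *Slc35e1* (0.43) and *Tmem127* (0.30) completed this side. The second probes of *Mfsd1* and *Slc35e1* gave 0.34 and 0.30, and a brighter *Tmem127* probe gave 0.12. The other probes of *Cyp2j13*, on dimmer spots, gave 0.05 and 0.07.

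The cytosolic ribosome is made of large and small subunit proteins around ribosomal RNA. Of 78 ribosomal protein genes measured, 73 were lower in LH by any amount and 5 were higher. At an unadjusted p under 0.05, 21 were lower and 0 higher, against 451 lower (2.45%) and 543 higher (2.95%) of 18433 named genes, 994 (5.39%) in all. The median difference was -0.17 (-0.16 over 46 large subunit genes, of which 42 were lower, and -0.20 over 31 small subunit genes, of which 29 were lower). Over all named genes 46.4% were lower by any amount.

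*Rps23*, a small subunit protein at the decoding centre, lay between -1.51 and -1.02 in LH (median -1.28) and between -1.32 and -0.81 in LL mice (median -0.90). The difference was -0.33 (SE 0.11), and LH was lower on 6 of 6 slides. The groups overlapped through LL replicate 3 alone, at -1.32, and the other 5 LL mice were above every LH mouse. *Rpl13a* differed by -0.42 (SE 0.15), *Rpl10a* by -0.24 (SE 0.08) and *Rps19* by -0.38 (SE 0.17, exact p = 0.0844). *Rpl41*, one of the smallest proteins of the ribosome, differed by -0.17 (SE 0.11, exact p = 0.0346), near the median of the list. The 5 genes that were not lower, *Rpl3*, *Rpl4*, *Rpl21*, *Rpl36a* and *Rps3a1*, differed by at most 0.10.

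The mean over the 78 genes was -0.70 to -0.63 in 5 LH mice and -0.39 in LH replicate 4, against -0.54 to -0.35 in the LL mice. LH replicate 4 therefore overlapped the LL group. The count of 21 depended on single mice. It was 8, 10 and 12 without LL replicate 5, 6 or 2, 10, 11 and 13 without LH replicate 2, 5 or 6, 29 without LH replicate 4 and 6 without both LH replicates 1 and 5. With ratios centred on the median of the array in place of loess it was 2. The median stayed between -0.24 and -0.15 in all of 29 alternatives. Ribosomal protein genes have many near-identical processed copies in the genome, and cross-hybridisation of their probes was not tested. They are also among the brightest spots. The brightest 10% of named genes held 71 of the ribosomal and 70 of the respiratory genes, and outside these lists 53 of its 1703 genes were lower at an unadjusted p under 0.05, with a median of 0.04. These other genes were not matched in brightness. The brightest 10% starts at a log2 Cy3 signal of 11.9, whereas the median signals were 14.5 for ribosomal and 14 for respiratory genes.

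The respiratory chain passes electrons from NADH and succinate to oxygen through complexes I to IV, and ATP synthase uses the resulting proton gradient. Of 75 genes measured, 63 were lower and 12 higher in LH by any amount. At an unadjusted p under 0.05, 14 were lower (18.7%, against 2.45% of all named genes) and 0 higher. The median was -0.15. The mean over the list was -0.42 to -0.30 in LH and -0.28 to -0.12 in LL mice. Every LH mouse was thus below every LL mouse, and therefore also below its pair on each slide. The gap was narrow, between -0.30 in LH replicate 4 and -0.28 in LL replicate 3. Means of 47 lists were read, each with the main processing only, and the separation was not tested.

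By complex, all 10 genes of complex IV, cytochrome oxidase, were lower in LH, with a median of -0.27 and 4 at an unadjusted p under 0.05 (*Cox7b* -0.50, *Cox7a2* -0.39, *Cox6c* -0.38 and *Cox6b1* -0.29). In complex I, 31 of 36 genes were lower, with a median of -0.12. *Ndufa11* differed by -0.49 (SE 0.17, second probe -0.50) and *Ndufb4* by -0.27 (SE 0.12, exact p = 0.00866). *Ndufb4* was -0.46 to -0.27 in LH and -0.33 to 0.10 in LL mice, where LL replicates 3 and 4 were as low as the LH mice. In complex III 8 of 9 genes and in ATP synthase 12 of 15 were lower, with medians of -0.11 and -0.16. Complex II was mixed: *Sdhd*, its membrane anchor, differed by -0.35 (SE 0.12), but the other 3 genes were higher in LH, with none at an unadjusted p under 0.05. These differences between complexes were not tested. The 14 genes at an unadjusted p under 0.05 were 8 without LH replicate 3 or without LL replicate 1, 9 without LL replicate 2 or 5, 22 without LL replicate 4, 7 without both LH replicates 1 and 5 and 3 under median centring. The median stayed between -0.20 and -0.13 in 29 alternatives.

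**Figure D2:**
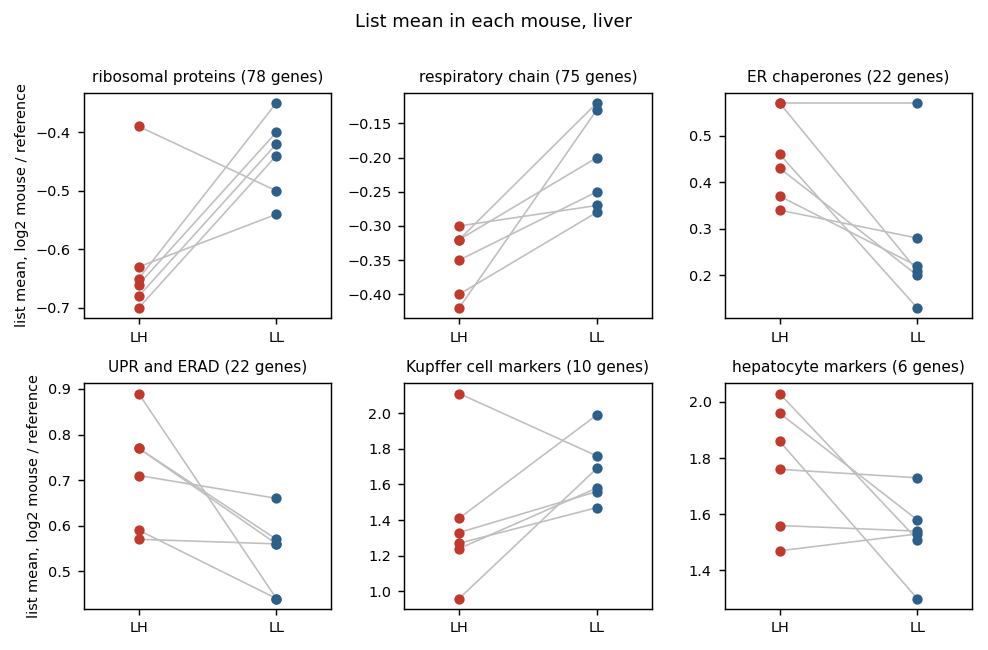
Mean log2 ratio of mouse over reference (vertical axis) over the genes of 6 lists in each LH (red) and LL (blue) mouse, with a grey line joining the mice of a slide. The respiratory chain means come close but do not overlap (LH -0.42 to -0.30, LL -0.28 to -0.12). LH replicate 4 lies among the LL mice for ribosomal proteins at -0.39, and Kupffer cell markers run against the other slides on slide 3.

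The ER folds secreted proteins with chaperones and protein disulfide isomerases. Of 22 such genes, 19 were higher in LH by any amount and 3 were lower. At an unadjusted p under 0.05, 3 were higher (13.6%, against 2.95% of all named genes). *Hyou1*, a chaperone of the HSP70 family, was 0.82 to 2.19 in LH (median 1.42) and 0.23 to 1.70 in LL mice (median 0.52). The difference was 0.78 (SE 0.35), a 1.72-fold higher level with a 95% interval of 0.05 to 1.51. *Pdia4*, a disulfide isomerase, was 0.72 to 1.68 in LH (median 0.97) and -0.11 to 1.61 in LL mice (median 0.19), a difference of 0.70 (SE 0.31). For both genes LL replicate 3 was as high as the LH mice, the other 5 LL mice lay at or below 1.01 and 0.62, and LH was above LL on 6 of 6 slides. *Canx*, the lectin chaperone calnexin, differed by 0.28 (SE 0.13), and its other 2 probes gave 0.25 and 0.52. Of the classical chaperones, *Hsp90b1* differed by 0.27 (SE 0.23, exact p = 0.193, 95% interval -0.20 to 0.74) and *Hspa5*, which encodes BiP, by 0.06 (SE 0.24). The list mean was 0.34 to 0.57 in LH and 0.13 to 0.57 in LL mice, where LL replicate 6 equalled the highest LH mice. The count of 3 was 0 without LH replicate 1 or any one of LL replicates 1, 2, 4 and 5, and 1 without LH replicate 3 or 6. The median was between 0.08 (without LL replicate 3) and 0.22 (without LL replicate 6) in 29 alternatives.

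Promoters of the chaperone list were searched for the ER stress response element, CCAAT and CCACG with any 9 bases between them, the site through which ATF6 and XBP1 act. The search covered both strands of the 250 bases before each RefSeq gene start (GRCm38.p6). The element was found in 8 of 19 matched chaperone genes (42.1%), in 2 of 19 matched genes of the unfolded protein response list (10.5%), in 0 of 58 ribosomal and 0 of 63 respiratory genes, and in 35 of 27025 genes overall (0.13%). By promoter it was in 37 of 32851 (0.113%). The promoters of *Canx*, *Hspa5* and *Hsp90b1*, which hold it, are shown 5′ to 3′ in the direction of the gene, with the matched element in capitals, because they show the element in front of chaperone genes described above. These are *Canx* (chr11:50325674-50325923, minus strand, element 145 to 127 bases before the start), *Hspa5* (chr2:34771840-34772089, plus strand, 65 to 47 bases before) and *Hsp90b1* (chr10:86705445-86705694, minus strand, 212 to 194 bases before, with a second match on the other strand that is left in lower case).
Canx: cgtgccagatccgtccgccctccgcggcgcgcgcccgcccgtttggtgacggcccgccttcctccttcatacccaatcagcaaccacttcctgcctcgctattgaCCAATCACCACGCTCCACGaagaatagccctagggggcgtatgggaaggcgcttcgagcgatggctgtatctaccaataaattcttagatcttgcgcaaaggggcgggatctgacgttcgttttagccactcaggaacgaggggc
Hspa5: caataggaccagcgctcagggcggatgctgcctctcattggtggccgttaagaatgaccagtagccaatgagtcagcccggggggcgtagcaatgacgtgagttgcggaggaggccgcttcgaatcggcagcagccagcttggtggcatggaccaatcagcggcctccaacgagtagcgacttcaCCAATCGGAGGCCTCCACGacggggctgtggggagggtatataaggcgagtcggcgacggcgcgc
Hsp90b1: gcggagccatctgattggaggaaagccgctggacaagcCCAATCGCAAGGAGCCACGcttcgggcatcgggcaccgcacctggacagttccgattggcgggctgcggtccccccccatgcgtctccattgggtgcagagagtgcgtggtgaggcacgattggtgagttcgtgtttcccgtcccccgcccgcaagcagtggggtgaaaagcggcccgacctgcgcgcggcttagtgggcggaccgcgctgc

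The same element thus stood in front of *Canx*, which differed by 0.28, of *Hsp90b1*, which differed by 0.27, and of *Hspa5*, which differed by 0.06, and the differences between these genes were not tested. The 8 chaperone genes with it differed by 0 to 0.28 (median 0.11), and the 11 matched genes without it by -0.25 to 0.70 (median 0.17). *Pdia4* had no match in this window. Of the chaperone list *Hyou1*, *Manf* and *Erp29*, and of the unfolded protein response list *Atf6*, *Derl1* and *Ppp1r15b*, were not searched, so that several of the larger differences of both lists are outside this count. The shorter element ERSE-II, ATTGG and CCACG with any 1 base between them, was found in *Herpud1* alone of both ER lists, in 10 of 32851 promoters overall (0.0304%). *Herpud1* differed by 0.07.

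**Figure D3:**
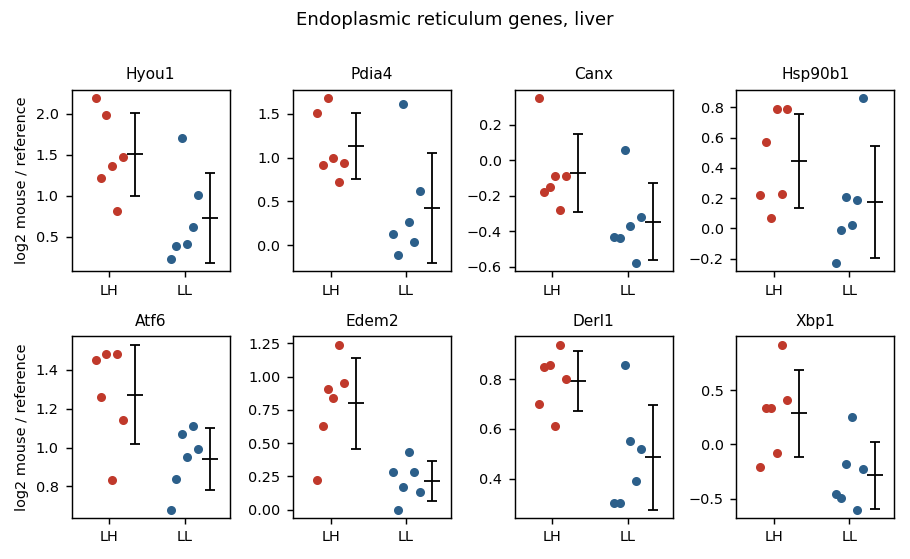
Log2 ratio of mouse over reference (vertical axis) of 8 ER genes in each of 6 LH (red) and 6 LL (blue) mice, with the mean and SD as black bars. LH means are above LL means for all 8, by 0.27 (*Hsp90b1*) to 0.78 (*Hyou1*), and the groups overlap for each. Most of these genes were picked for an unadjusted p under 0.05 in limma in these same mice, so their shared direction is not further evidence. Genes that were lower in LH are not drawn. These were 3 of 22 in the chaperone list (down to -0.25) and 3 of 22 in the unfolded protein response list (down to -0.35).

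The sensors of the unfolded protein response and the machinery of ER-associated degradation, which exports misfolded protein for breakdown, were also mostly higher in LH. Of 22 genes, 19 were higher and 3 lower by any amount. At an unadjusted p under 0.05, 6 were higher (27.3%, against 2.95% of all named genes) and 0 lower. *Atf6*, the membrane-bound sensor and transcription factor, was 0.83 to 1.48 in LH (median 1.36) and 0.68 to 1.11 in LL mice (median 0.97), a difference of 0.33 (SE 0.12). Its second probe gave 0.07. Its relative *Atf6b* differed by 0.31 (SE 0.13), and *Mbtps1* and *Mbtps2*, the proteases that release ATF6 from the Golgi membrane, by 0.28 (SE 0.13) and 0.16 (SE 0.07). *Edem2*, which trims mannose from misfolded glycoproteins, was 0.22 to 1.24 in LH and 0 to 0.43 in LL mice, a difference of 0.58 (SE 0.23). Only LH replicate 1 lay within the LL range. *Derl1*, part of the export channel, differed by 0.31 (SE 0.12), with 0.06 to 0.19 at its other 3 probes.

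Genes of the other sensors were not at an unadjusted p under 0.05 in limma. *Xbp1*, the factor spliced by IRE1, differed by 0.57 (SE 0.29, exact p = 0.0173, 95% interval -0.02 to 1.17). *Atf4*, the factor translated under PERK, differed by 0.01, and *Ddit3*, its target in cell death, by -0.35 (SE 0.19). The sensors *Eif2ak3* (PERK) and *Ern1* (IRE1) differed by 0.14 and -0.08, each within its error. The list mean was 0.57 to 0.89 in LH and 0.44 to 0.66 in LL, higher in LH on 6 of 6 slides. The 6 genes were 4 to 6 with any 1 mouse left out, 3 under median centring and 1 without both LH replicates 1 and 5, while the median stayed between 0.11 and 0.20 in 29 alternatives. Hepatocyte markers were also higher in LH by a median of 0.22 and Kupffer cell markers lower by 0.29, and their part in the differences of the 4 lists was not tested.

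Few genes of selenium and folate biology were at an unadjusted p under 0.05. Of 24 selenoprotein genes, 19 were higher and 5 lower in LH by any amount, with a median of 0.10 (0.04 without LL replicate 3), and none was at an unadjusted p under 0.05. With the slide as a block, 3 were higher. *Sephs2*, which makes the selenium donor and is itself a selenoprotein, differed by 0.45 (SE 0.25), *Txnrd3*, a thioredoxin reductase, by 0.24 (SE 0.12), *Dio1*, which activates thyroid hormone, by 0.35 (SE 0.23) and *Selenop*, the plasma carrier of selenium, by -0.07 (SE 0.20). *Gpx1*, the peroxidase whose messenger is sensitive to selenium supply, differed by 0.07 (SE 0.13). *Gpx4*, the peroxidase of membrane lipids, was -0.45 to -0.05 in LH (median -0.22) and -0.19 to 0.04 in LL mice (median -0.08), a difference of -0.15 (SE 0.13, exact p = 0.0433, 95% interval -0.42 to 0.12). Most LH mice were thus below most LL mice, but the ranges overlapped. None of 7 genes of selenocysteine synthesis and insertion was at an unadjusted p under 0.05, and they differed by -0.14 to 0.13.

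Of 24 genes of folate uptake and the folate cycle, 2 were higher in LH at an unadjusted p under 0.05 (8.33%), and the median was 0.06 (0.12 without LL replicate 3). Over all named genes 2.95% were higher at that p, and 5.39% were at it in either direction. *Slc46a1*, the proton-coupled folate transporter, was 0.32 to 0.55 in LH (median 0.44) and 0.23 to 0.36 in LL mice (median 0.24), a difference of 0.17 (SE 0.07). It was higher in LH on 6 of 6 slides, with a small overlap. The other gene, *Mthfd2l*, was not well above background on any LH or LL array. *Mtr*, methionine synthase, differed by 0.08 (SE 0.11). In the methionine cycle 1 of 18 genes (5.56%, near the share of all named genes) was at an unadjusted p under 0.05. This was *Mat2b*, the regulatory subunit of methionine adenosyltransferase, at 0.28 (SE 0.11). Of 7 genes of DNA methylation, *Dnmt3a*, a de novo methyltransferase, was lower by 0.39 (SE 0.18) on 6 of 6 slides. Its other 2 probes gave -0.05 and 0.08, and *Dnmt1* differed by 0.21 (SE 0.14).

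Among genes of metal handling, *Mt1*, a metallothionein that binds zinc and copper, was -2.91 to -1.82 in LH (median -2.55) and -2.07 to -0.99 in LL mice (median -1.43). The difference was -0.99 (SE 0.35), a 1.99-fold lower level, seen on 6 of 6 slides with LH replicates 1 and 6 inside the LL range. *Mt2*, its close relative, differed by -0.40 (SE 0.24). The zinc importers *Slc39a7* of the ER and Golgi, *Slc39a1* of the plasma membrane and *Slc39a11* were higher in LH by 0.30, 0.44 and 0.38. They were the 3 of 13 importers at an unadjusted p under 0.05, where 7 were higher and 6 lower by any amount with a median of 0.02. Of 7 Slc30 exporters none was at that p, 5 were higher by any amount and the median was 0.12. Of 21 iron genes, *Hmox1*, which degrades haem, was lower by 0.49 (SE 0.19) on 6 of 6 slides, and *Steap4* (0.54), *Tfr2* (0.18) and *Aco1* (0.22) were higher. At an unadjusted p under 0.05 were 17.4% of 23 zinc genes and 19% of the iron genes, against 5.39% of all named genes.

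Of 24 genes of cholesterol synthesis and uptake, 22 were higher in LH by any amount, with a median of 0.21 (0.12 without LH replicate 6), but only *Mvk* was at an unadjusted p under 0.05 (0.31). Of 23 genes of fatty acid synthesis, *Elovl6*, an elongase, and *Mlxipl*, the carbohydrate-sensing factor ChREBP, were lower by 0.67 (SE 0.32) and 0.43 (SE 0.19), and the median was 0. *Apob*, the core protein of secreted lipoproteins, was higher by 0.62 (SE 0.24) on 6 of 6 slides, but its 5 probes ran from -0.54 to 0.62. The cholesterol and fatty acid synthesis lists held 4.17% and 8.7% at an unadjusted p under 0.05, against 5.39% of all named genes. Of 26 interferon response genes, 23 were higher and 3 lower by any amount. At an unadjusted p under 0.05, 3 were higher (11.5%, against 2.95% of all named genes). *Iigp1*, an interferon-induced GTPase, was 0.36 to 1.45 in LH (median 0.66) and -0.67 to 0.39 in LL mice (median 0.14), a difference of 0.73 (SE 0.20). *Usp18* and *Irgm1* were higher by 0.54 and 0.34. The neutrophil proteins *S100a8* and *S100a9* were lower by 0.70 (SE 0.24) and 0.95 (SE 0.33), while the neutrophil granule genes *Elane*, *Mpo*, *Ngp*, *Camp* and *Ltf* differed by -0.01 to 0.19. Of these, *Elane*, *Ngp* and *Camp* were well above background on none of the 12 arrays.

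Translation factors lay on both sides, and 9.52% of them were at an unadjusted p under 0.05, against 5.39% of all named genes. Of 42 measured, *Eif2s3x*, *Eif4g1* and *Eif3c* were higher in LH by 0.45, 0.53 and 0.22 at an unadjusted p under 0.05, *Eif4e*, which binds the cap, was lower by 0.20, and 22 were higher against 20 lower by any amount. The other probes of each disagreed with these, at -0.10 and 0.11 for *Eif2s3x*, 0.08 for *Eif4g1* and -0.49 to 0.15 for *Eif3c*. Of 21 cytosolic heat shock genes, *Dnajb1* was lower by 0.47 (SE 0.20), and the prefoldin subunit *Pfdn1* differed by -0.40 (SE 0.22, exact p = 0.119). Of the clock genes, *Per3* was higher by 0.49 (SE 0.15), at a signal above background on 5 LH and 4 LL arrays, and the 6 genes that peak with *Arntl* were all lower, by 0.02 to 0.40. The hours at which the livers were taken are not given in the sources used here.

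**Figure D4:**
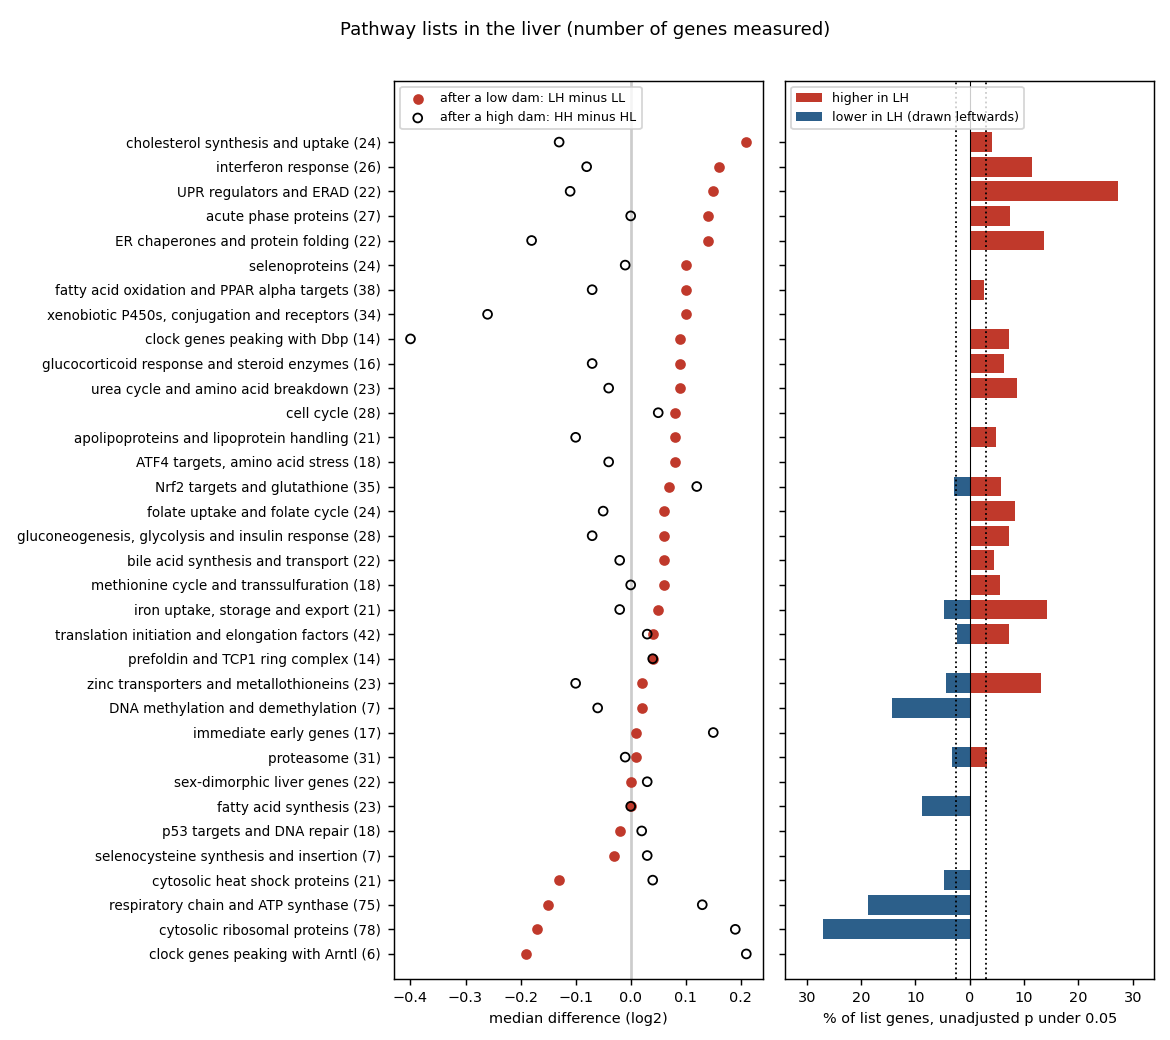
Left, the median difference in log2 units over the genes of each of 34 pathway lists, for LH minus LL (red) and HH minus HL (open). Right, the percentage of each list's genes with an unadjusted p under 0.05, higher in LH to the right and lower to the left, with dotted lines at the percentages over all named genes (2.95% and 2.45%). Ribosomal proteins and the respiratory chain have 26.9% and 18.7% of their genes on the lower side.

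The same switch of diet was also made after a high dam (HH against HL), and the test of the difference between the switches, (LH minus LL) minus (HH minus HL), shares no mouse between the switches. No probe passed the adjusted threshold (lowest adjusted p = 0.4 in limma). At an unadjusted p under 0.05 there were 2766 probes (6.72%), 1501 higher (3.65%) and 1265 lower (3.07%), and 1455 of 18433 named genes (7.89%), 780 higher (4.23%) and 675 lower (3.66%). For HH minus HL there were 362 named genes (1.96%), 178 higher (0.966%) and 184 lower (0.998%). After repair of the local background, which touches the HH and HL arrays most, HH minus HL gave 906 named genes (4.92%) and the test of the difference 2144 (11.6%). The ribosomal genes, lower on diet H after a low dam, were higher on it after a high dam, where 25 of 78 were higher and 0 lower at an unadjusted p under 0.05 with a median of 0.19. In the test of the difference 38 of 78 were lower and 0 higher, with a median of -0.37. This count was 37 after repair of the local background and 40 without HL replicate 2, but 4 under median centring. Without HH replicate 2 and HL replicates 5 and 6, the arrays most compressed, it was 23, and the median after a high dam was 0.13 with 6 genes higher.

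For the respiratory genes the medians were also of opposite sign, with medians of -0.15 after a low and 0.13 after a high dam, and 31 of 75 lower and 0 higher in the test of the difference. The count was 30 after repair, 33 without HL replicate 2 and 2 under median centring. Without the 3 compressed arrays it was 15, and the median after a high dam was 0.03 with no gene at an unadjusted p under 0.05. For the ER lists the signs were turned. Chaperones had medians of 0.14 after a low and -0.18 after a high dam, with 5 of 22 higher in the test of the difference, and the unfolded protein response list had 0.15 and -0.11, with 8 higher and 1 lower. Without HL replicate 2 these counts were 7 for chaperones and 10 higher and 1 lower for the unfolded protein response list. Without the 3 compressed arrays they were 4, and 3 higher and 1 lower, and the medians after a high dam were both -0.05.

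Among single genes, *Snhg3* differed by -0.46 after a low and 0.27 after a high dam (difference -0.73, SE 0.14, adjusted p = 0.4 in limma). *St6gal1* differed by 0.45 and -0.32 (difference 0.77, SE 0.15, adjusted p = 0.4). *Cyp2c54*, a P450 of drug and fatty acid metabolism, was 2.98 to 3.83 in LH and 2.20 to 3.13 in LL mice, a difference of 0.55 (SE 0.28), against -1.11 after a high dam (difference 1.66, SE 0.41, adjusted p = 0.563). *Gpx4* differed by -0.15 after a low and 0.43 after a high dam (difference -0.58, SE 0.19, adjusted p = 0.63), *Rpl41* by -0.17 and 0.44 (difference -0.61, SE 0.17), *Ndufb4* by -0.27 and 0.38 (difference -0.65, SE 0.17) and *Xbp1* by 0.57 and -0.47 (difference 1.04, SE 0.42). Each of these genes thus stood on opposite sides of 0 in the 2 switches. However, *Snhg3*, *St6gal1* and *Cyp2c54* were picked on LH against LL, and the study named the others for HH against LH. The values behind these choices also enter the difference, so that its size is not independent evidence. Without the 3 compressed arrays *Xbp1* differed by -0.04 after a high dam (difference 0.61, SE 0.34), and the differences of the other 6 genes were -0.68 (*Snhg3*), 0.73 (*St6gal1*), 1.56 (*Cyp2c54*), -0.55 (*Gpx4*), -0.50 (*Rpl41*) and -0.51 (*Ndufb4*). For these genes, values without HL replicate 2 are not given.

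In the colon of LH and LL mice the same lists lay near 0. Of named genes 407 (2.21%) were at an unadjusted p under 0.05, 200 higher (1.08%) and 207 lower (1.12%), and none of the ribosomal, respiratory and ER genes of these lists was among them, with medians of -0.02, 0, -0.02 and -0.01 for ribosomal, respiratory, chaperone and unfolded protein response genes. In the test of liver against colon 1484 probes (3.6%) were at an unadjusted p under 0.05, 747 higher (1.81%) and 737 lower (1.79%), and 0 passed the adjusted threshold. Liver and colon may come from the same mice, but the labels number them apart. The fit took the arrays of the tissues as independent. *Ndufb5* differed by -0.37 in the liver and 0.08 in the colon (difference -0.45), *Jpt2* by 0.39 and -0.05 and *Aco1*, the iron-regulatory aconitase, by 0.22 and -0.17, each with an adjusted p = 1 for the difference.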

How the data were processed

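As intensity values the authors deposited, for each array, the raw median signals and local backgrounds of both dyes and the processed signals of Feature Extraction. The series also has 1 table that the authors deposited with log2 ratios, normalized by loess without background correction, which hold reference over mouse (r = -1 with mouse over reference). Per the labels, 2 HH arrays came from 1 animal, and these were averaged.

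The 43379 spots that are not controls belong to 41174 probes, of which 27050 were named by RefSeq accession (18434 genes, GRCm38.p6) and 14124 stayed unnamed. In R 4.3.3 with limma 3.58.1, background was corrected by normexp (offset 50), global loess was run on each array, and spots were averaged by probe. The 23 liver mice were fitted as 4 groups with lmFit and eBayes, with Benjamini-Hochberg adjustment over all 41171 probes tested. A call needed an adjusted p under 0.05 and a fold change over 1.5. How many arrays there are limits the precision.

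Each gene was read at its brightest Cy3 probe, except that genes without overlap were read at the probe concerned. Named genes are those named in the study's liver results, the 8 on each side without overlap that had the lowest p and were well above background on at least 6 of 12 arrays, up to 4 genes of each pathway list at an unadjusted p under 0.05 (otherwise the one with the lowest p), and the first of each marker list. Other list members were named after their values were seen. The comparison, the members and the lists were chosen with earlier results of these data known.

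Per the labels, slide numbers pair LH and LL mice. Deviations of slide mates correlated by -0.21 to 0.46 (median 0.01, n = 6), and those of mice on different slides by -0.48 to 0.42 (median -0.02). Alternatives were slide or array position as a block, other background corrections and normalizations, the deposited table, no dim probes, fewer groups, array weights, other limits, and leaving out each mouse. Leaving out LH replicates 1 and 5, HL replicate 2, or HH replicate 2 with HL replicates 5 and 6 was added after seeing the data. The fit was tested on simulated data. Results for some genes are not reported here.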

Additional observations from a re-analysis of the deposited data

Results flagged for a closer look

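In 17 of 286 groups of 6 mice 1 mouse lay apart from the other 5 by Dixon's test at 95%, where chance gives about 1 in 20. LL replicate 6 held 4 of them, given below, and LH replicate 4 held 3. In LH replicate 4 the log2 ratio of the fat cell hormone *Adipoq* was 2.02, against -1.47 or lower in the other LH mice. Its mean over the adipocyte markers was 1.85 against -0.83 or lower. Its mean over the ribosomal proteins was -0.39, against -0.63 or lower.

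Among single genes, LH replicate 1 was high for *Canx* at 0.35 and LL replicate 1 high for *Clec4f* at 3.12. LL replicate 6 was low for *Cyp2j13* at -0.28 and high for *Pank4* at 0.26. LL replicate 5 was high for *Higd1a* at 0.43 and LL replicate 3 low for *Rps23* at -1.32. For *Pcx*, pyruvate carboxylase, LH replicate 3 was low at 1.44 and LL replicate 4 high at 2.01.

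Among list means, LL replicate 6 was high for ER chaperones at 0.57, LL replicate 4 low for cell cycle genes at -2.03, LH replicate 2 low for sinusoidal endothelium at 0.32, LL replicate 3 low for stellate cells at -2.33 and LL replicate 5 low for cholangiocytes at -3.00. LL replicate 6 also had a log2 Cy3 signal of 8.56 for *Xist*, against 6.60 or lower in the other LL mice.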

How the results depend on the processing

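Of 28 alternatives, none gave a probe past the adjusted threshold for LH against LL, and of 2659 values of the 95 named genes 2653 kept their sign, with a lowest adjusted p of 0.22. The 6 values that turned were *Alb* at -0.16 and *Cd3e* at 0.01 with processed signals, *Cd3e* at 0.03 and *Krt19* at -0.05 in the Cy3 channel alone, *Cd3e* at 0.00 without LH replicate 5 and *Stab2* at 0.01 without LH replicate 2. With each mouse left out, *Cd3e* was -0.14 to 0.00 and *Stab2* -0.17 to 0.01. The 2487 probes at an unadjusted p under 0.05 became 3807 (1998 higher, 1809 lower) with repaired background and slide as a replicate block, 788 (479, 309) with median centring, 1543 (807, 736) without dim probes, 4986 (2692, 2294) with array weights and 1542 to 3463 (814 to 1868, 728 to 1595) with each mouse left out. The 114 probes without overlap became 75 (41 lower) with median centring, 74 (28 higher) without dim probes, 141 to 399 (60 to 215, 81 to 184) with each mouse left out, where fewer mice are compared, and 439 (196, 243) without LH replicates 1 and 5. Ribosomal genes lower at that p (21) became 9 with array position as a block, 35 with processed signals, 2 with median centring, 33 with array weights, 6 without LH replicates 1 and 5 and 8 to 29 with each mouse left out. Respiratory genes (14) became 30 with processed signals or Cy3 alone, 3 with median centring, 23 with only LH and LL mice, 28 with array weights, 7 without LH replicates 1 and 5 and 8 to 22 with each mouse left out. ER chaperones (3) became 5 with array weights, 0 without LH replicates 1 and 5 and 0 to 4 with each mouse left out, and unfolded protein response genes (6) became 3 with median centring and 1 without LH replicates 1 and 5. Of 1363 list medians under 29 alternatives, the mean over all probes of a gene included, 59 changed sign, none in these 4 lists. The folate median became 0.03 with processed signals, 0.09 without LH replicates 1 and 5 and 0.04 to 0.12 with each mouse left out, the acute phase median 0.01 with processed signals and 0.06 in Cy3 alone, and the erythroid and neutrophil medians -0.36 without dim probes.

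For the difference between the switches, the replicate block with repaired background gave 3 calls (*Paip2b* 0.64, *Wdr4* -0.76 and an unnamed probe at -1.49, adjusted p = 0.0313 in limma), where the other alternatives gave 0. Its 2766 probes at an unadjusted p under 0.05 became 4513 without background correction or in the deposited table, 4674 with repaired background, 5752 with the block added, 4814 with processed signals, 1589 with median centring, 4687 in Cy3 alone and 4960 with array weights, and its ribosomal and respiratory counts (38 and 31) 4 and 2 with median centring and 23 and 15 without HH replicate 2 and HL replicates 5 and 6. Slide as a replicate block alone gave 3202 probes for LH against LL and changed no call. The cause of these shifts was not tested.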

Other observations

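In other liver pathways the differences between LH and LL were few. Over all named genes 5.39% were at an unadjusted p under 0.05. The lists of this paragraph held 2.63% to 8.7%, near that share, so their counts are not results about the pathways. Of 27 acute phase genes, the fibrinogen chains *Fga* and *Fgb* were higher in LH by 0.48 and 0.30 at an unadjusted p under 0.05 in limma, and the median was 0.14. Of 23 genes of the urea cycle and amino acid breakdown, *Tdo2*, which opens tryptophan breakdown, and the aspartate-glutamate carrier *Slc25a13* were higher by 0.52 and 0.34. Of 28 genes of gluconeogenesis and glycogen, *Pcx* and *Pgm1* were higher by 0.33 and 0.28. Of 35 genes of the Nrf2 response, *Cat*, catalase, and *Sod3* were higher by 0.42 and 0.27 and *Hmox1* was lower. Of 31 proteasome genes, *Psmd2* was higher by 0.27 and *Psma7* differed by -0.26. *Aldh3a2* (0.33) of 38 genes of fatty acid oxidation, the bile salt and conjugate exporter *Abcc2* (0.22) of 22 bile acid genes and *Hsd3b3* (0.40) of 16 glucocorticoid and steroid genes were the single genes of their lists at that p.

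None of 34 genes of P450s, conjugation and their receptors was at an unadjusted p under 0.05, and none of the lists of ATF4 targets (18 genes), p53 targets (18), immediate early genes (17), sex-dimorphic genes (22) and the cell cycle (28) held one. All but 2 of the 28 cell cycle genes were nevertheless higher in LH by any amount, with a median of 0.08, or 0.02 without LH replicate 1 and 0.15 without LH replicate 2. Of other cell types, stellate cells had 1 marker at that p, *Lrat* at -0.35, and the median of the adipocyte markers was 0.51, or 0.05 without LH replicate 4. Markers of T and NK cells, B cells (median -0.12) and sinusoidal endothelium (median -0.13, or -0.02 without LH replicate 2) had none.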
